A study of Mus musculus with 4 samples.

Results

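The genes described here are 10 transcription factors of the dendritic cell lineage, Irf4, Irf8, Batf3, Id2, Zbtb46, Tcf4, Nfil3, Spib, Cbfa2t3 and Bcl6. They were chosen by symbol, and each symbol matched 1 entry among the 55418 genes of the deposited tables, so that all 10 members were found and all 10 passed the filter on low counts. Their RNA was followed across classes of sorted thymic cells in 3 single-cell RNA libraries. The study profiled these cells to resolve the myeloid populations of the thymus.

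All mice were of the C57BL/6 strain. MaFIA mice (genotype Csf1r-EGFP-NGFR/FKBP1A/TNFRSF6, 5 weeks old) express EGFP together with a drug-inducible suicide receptor from the Csf1r promoter, which drives the receptor for a macrophage growth factor, and EGFP+ cells were sorted. CD11c-YFP mice (genotype Itgax-Venus, 9 weeks old) express Venus, a form of YFP, from the promoter of the CD11c gene Itgax, and YFP+ cells were sorted. The labels name no drug for any mouse, and every thymus was digested with collagenase P and DNase I before the sort. Replicate 2 of MaFIA and replicates 1 and 2 of CD11c-YFP were compared, so the reporter, the age and the sex (female and male, by the study's methods) change together and cannot be told apart. Which cells are seen is set by the reporters.

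Dendritic cells take up antigen and present it to T cells, and in the thymus they contribute to the deletion of self-reactive thymocytes. Classical dendritic cells (cDC) fall into the cDC1 and cDC2 lineages, and plasmacytoid dendritic cells (pDC) are specialised for type I interferon. The factors followed here are known for their parts in these fates: IRF8, BATF3, ID2, NFIL3 and BCL6 in cDC1, IRF4 in cDC2, TCF4 (E2-2) and SPIB in pDC, and ZBTB46 as a factor of all classical dendritic cells. ID2 binds E proteins such as TCF4 and blocks their contact with DNA. CBFA2T3 (ETO2) is a transcriptional corepressor.

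Promoters are shown for some of the members that differed in opposite directions between Xcr1+ and Cd209a+ DC. Irf4 and Spib were lower in Xcr1+ DC, and Irf8, Id2 and Batf3 were higher. These groups did not hold in the other comparisons. The RefSeq promoter table matched 9 of the 10 members, all but Tcf4. Each run is the 250 bases before the annotated start on build GRCm38.p6, in the direction of the gene. Capitals mark matches to 5 motifs searched on both strands with overlaps allowed.
Irf4 (chr13:30748983-30749232, plus strand): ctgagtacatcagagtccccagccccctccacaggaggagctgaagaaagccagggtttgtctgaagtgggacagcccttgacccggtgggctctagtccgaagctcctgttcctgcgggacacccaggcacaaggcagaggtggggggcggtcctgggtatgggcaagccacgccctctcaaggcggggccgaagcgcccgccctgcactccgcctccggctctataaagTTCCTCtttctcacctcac
Spib (chr7:44532072-44532321, minus strand): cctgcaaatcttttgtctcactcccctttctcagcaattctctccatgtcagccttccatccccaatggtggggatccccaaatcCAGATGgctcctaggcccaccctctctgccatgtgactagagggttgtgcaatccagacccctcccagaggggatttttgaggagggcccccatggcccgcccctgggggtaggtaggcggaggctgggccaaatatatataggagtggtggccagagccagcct
Irf8 (chr8:120736108-120736357, plus strand): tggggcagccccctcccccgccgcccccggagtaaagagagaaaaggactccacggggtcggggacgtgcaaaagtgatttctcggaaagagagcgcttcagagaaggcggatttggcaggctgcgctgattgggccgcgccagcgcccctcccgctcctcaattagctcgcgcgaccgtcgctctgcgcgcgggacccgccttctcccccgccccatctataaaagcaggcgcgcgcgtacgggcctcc
Id2 (chr12:25096093-25096342, minus strand): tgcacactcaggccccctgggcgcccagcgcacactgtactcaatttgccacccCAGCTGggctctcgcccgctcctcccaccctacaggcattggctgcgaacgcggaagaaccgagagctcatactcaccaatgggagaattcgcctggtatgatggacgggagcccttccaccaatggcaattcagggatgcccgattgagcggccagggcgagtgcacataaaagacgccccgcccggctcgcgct
Batf3 (chr1:191098164-191098413, plus strand): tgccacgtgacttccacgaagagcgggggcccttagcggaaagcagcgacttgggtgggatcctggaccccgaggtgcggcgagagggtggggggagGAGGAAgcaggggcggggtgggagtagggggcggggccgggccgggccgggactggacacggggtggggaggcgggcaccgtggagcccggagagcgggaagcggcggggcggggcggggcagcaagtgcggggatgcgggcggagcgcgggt
Searched were AANNGAAA (an IRF core, in 21.3% of 32851 promoters), TGANTCA (AP-1, 6.75%), CAGNTG (an E-box bound by E proteins, 44.8%), TTATNTAA (a D-box of NFIL3, 3.17%) and GAGGAA (a core of PU.1 and SPIB, 23.3%). The Irf4 and Batf3 windows each held 1 match to GAGGAA, and the Id2 and Spib windows each held 1 E-box. The printed Irf8 window held no match. A second Irf8 entry (chr8:120738389-120738638, not printed) held 1 E-box, with a GC content of 54% and 8 CpG dinucleotides. GC content was 63.6% for Irf4, 58% for Spib, 67.2% for Irf8, 62.8% for Id2 and 76% for Batf3, against a median of 52.4% over all promoters. CpG dinucleotides numbered 11 for Irf4 and 2 for Spib, and 29, 18 and 27 for Irf8, Id2 and Batf3, with a median of 6 over all promoters. Among the members not printed, Nfil3, lower in Xcr1+ DC, had 43 CpG dinucleotides and a GC content of 81.6%. Bcl6, higher in Xcr1+ DC, had 21 and 13 CpG dinucleotides in its entries. The motif matches are letters in a window and were not tested as binding sites.

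On build GRCm39, Irf4 lies on chromosome 13 (30933209 to 30950959, plus strand) and Irf8 on chromosome 8 (121463096 to 121485659, plus strand). Batf3 lies on chromosome 1 (190830044 to 190841142, plus strand), Id2 on chromosome 12 (25143798 to 25147282, minus strand) and Spib on chromosome 7 (44175417 to 44181495, minus strand). All are annotated as protein-coding. The 3′ libraries count RNA molecules as unique molecular identifiers (UMIs) over the whole gene and do not separate its isoforms.

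The 3 libraries held 6219, 7646 and 9684 cells after filtering, with median depths of 17493, 15759 and 17210 UMIs per deposited barcode in MaFIA replicate 2 and CD11c-YFP replicates 1 and 2. MaFIA replicate 1 (median 3980.5 UMIs) was not among the libraries compared. Between 10 and 25 barcodes were shared by any pair of the 4 libraries. In MaFIA replicate 2, genes of the immediate early and stress response were lower in each of the 9 classes than in both CD11c-YFP libraries, with Fos at 0.0275, Dusp1 at 0.0553 and Hspa1a at 0.118 of the CD11c-YFP mean (median over classes). These genes were picked after their values were seen.

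The 23549 cells formed 25 clusters, and 17 of them took the name of a class by markers, without the 10 members, the listed factors or the listed program genes entering the clustering. The 9 classes hold 91.8% of cells and are called by their markers: Xcr1+ DC-like (the cDC1 markers Xcr1 and Clec9a, 4928 cells), Cd209a+ DC-like (cDC2 markers, 2971 cells), Ccr7+ DC-like (markers of mature, migratory dendritic cells, 4743 cells), pDC-like (1251 cells), B cell-like (2500 cells), monocyte-like (1234 cells), Timd4+ macrophage-like (1030 cells), Cx3cr1+ macrophage-like (1766 cells) and thymocyte-like (1197 cells). For short, "-like" is left out below. All markers listed for each dendritic class were detected in it. The 6 Xcr1+ DC markers summed to 3493 to 3573 CPM (UMIs per 1000000 UMIs) in the Xcr1+ DC and to 307 to 457 CPM in the Cd209a+ DC. The 6 Cd209a+ DC markers summed to 937 to 2864 CPM in their own class, lowest in CD11c-YFP replicate 1, and to 304 to 1595 CPM in the Ccr7+ DC. The 7 monocyte markers summed to 1471, 1286 and 1042 CPM in the Cd209a+ DC, above the class's own markers in CD11c-YFP replicate 1, and to 2341 to 6856 CPM in monocytes. Monocyte was the runner-up name of cluster 2, the main Cd209a+ DC cluster (score 0.325 against 0.447), and the part of such cells in the values of this class was not tested. The B cell markers summed to 1499 to 1924 CPM in the pDC, against 13567 to 15317 CPM in B cells and 142 to 333 CPM in the 3 classical DC classes.

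Levels below are normalised CPM, that is, UMIs summed over the cells of a class in 1 library scaled to CPM, with a scaling factor for library composition, and 3 values are given in the order MaFIA replicate 2, CD11c-YFP replicate 1, CD11c-YFP replicate 2. A level belongs to 1 gene, and levels are not compared between genes, since 3′ counting efficiency differs between them. A mean is followed by its SD (n = 3 libraries). Differences are log2 fold changes with their standard error from edgeR's quasi-likelihood test on the 27 sums with the library as a block, with p-values adjusted by the method of Benjamini and Hochberg across 15467 genes.

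The interferon regulatory factors split the dendritic classes. Irf8 was at 3225, 2834 and 2683 CPM in pDC and at 2417, 2391 and 2189 CPM in Xcr1+ DC. It stood at 963, 1373 and 1205 CPM in Ccr7+ DC and at 182, 199 and 160 CPM in Cd209a+ DC, and these 4 classes did not overlap. The Cd209a+ DC were the lowest of the dendritic, monocyte and macrophage classes, and only the thymocytes (50.4, 78.3 and 63.5 CPM) lay below them. The remaining classes ran from 397 ± 6.84 CPM in B cells over 462 ± 64.3 CPM in monocytes and 629 ± 19.5 CPM in Cx3cr1+ macrophages to 728 ± 79 CPM in Timd4+ macrophages, and B cells and monocytes overlapped, as did the macrophage classes.

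Irf4 was highest in B cells (57.7, 132 and 128 CPM), Cd209a+ DC (77.2, 57.3 and 91.1 CPM) and Ccr7+ DC (56.4, 51.2 and 60.6 CPM), and these 3 classes overlapped. The pDC held 10.3, 27.6 and 32.5 CPM. Irf4 was at 1.36, 1.79 and 2.67 CPM in Xcr1+ DC, below every other class, with 225 UMIs in 4928 cells. Its order over the dendritic classes was the reverse of that of Irf8 for Xcr1+ and Cd209a+ DC, while Ccr7+ DC were high in Irf4 and intermediate in Irf8.

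**Figure D1:**
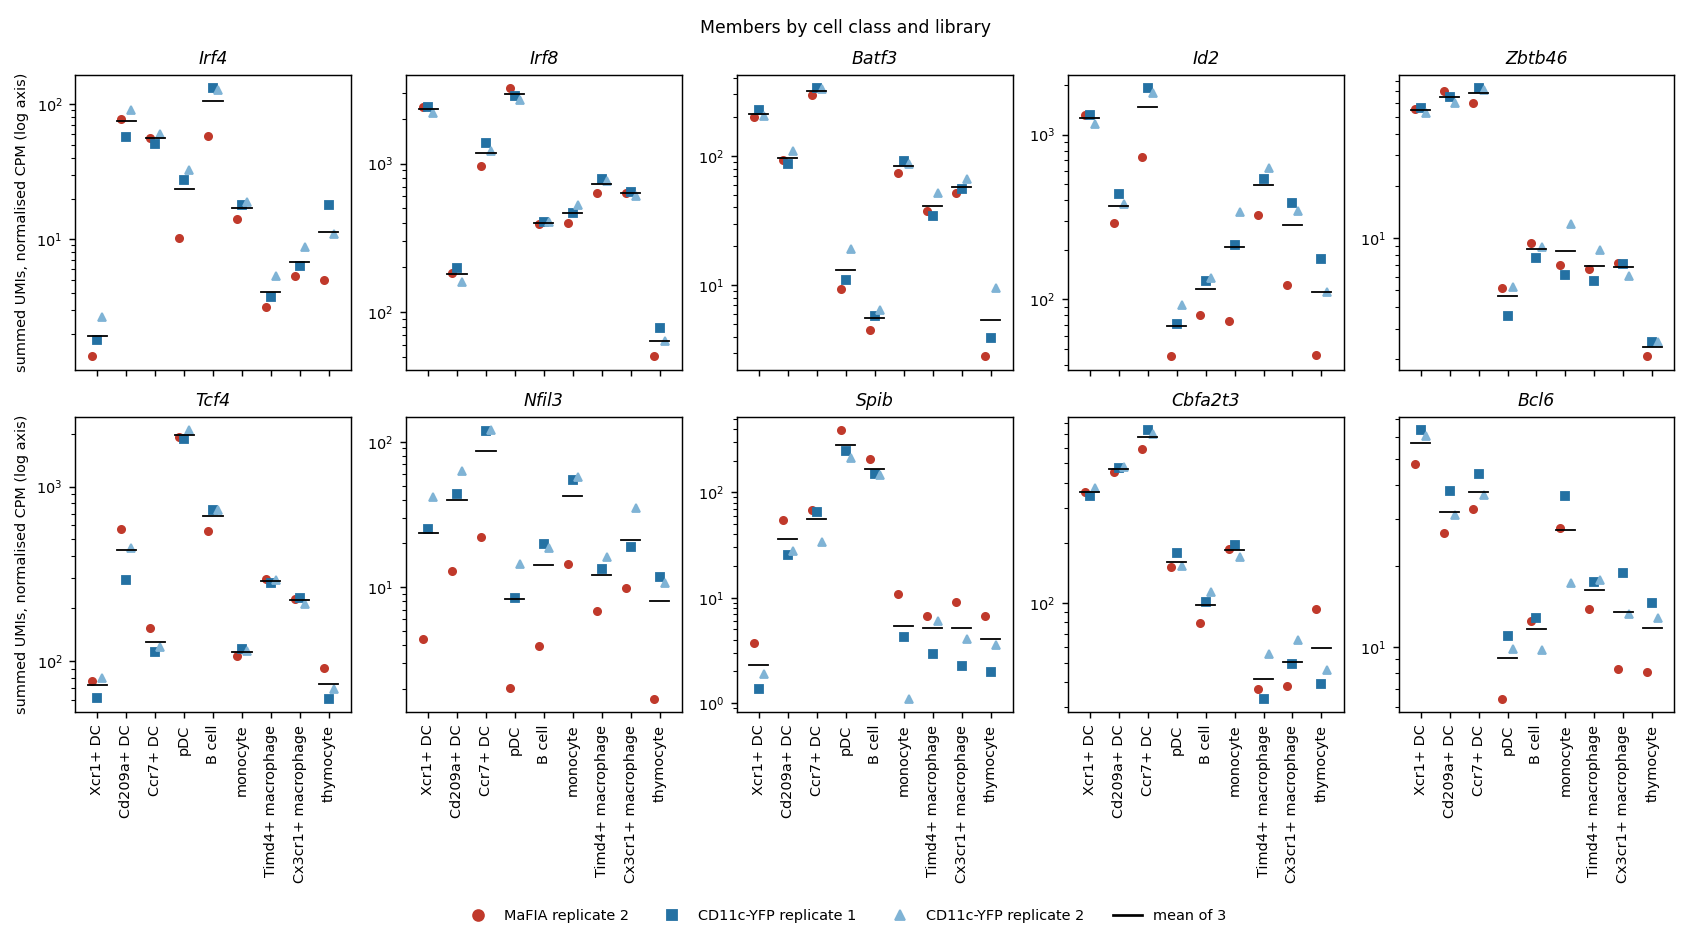
Levels of the 10 members (normalised CPM of summed UMIs, logarithmic y axes) in the 9 cell classes, with 1 point per library and a bar at the mean of 3. Irf4 sits between 1.36 and 2.67 CPM in Xcr1+ DC and between 57.3 and 91.1 CPM in Cd209a+ DC, while Nfil3 in MaFIA replicate 2 lies below both CD11c-YFP libraries in each class.

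Batf3, a partner of IRF factors on DNA, was highest in Ccr7+ DC (295, 337 and 328 CPM), then in Xcr1+ DC (200, 228 and 204 CPM). Cd209a+ DC held 93, 86.8 and 109 CPM and overlapped with monocytes at 73.3, 91.5 and 86.6 CPM. Batf3 was at 13.2 ± 5.25 CPM in pDC and at 5.56 ± 1.01 CPM in B cells.

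Id2 was highest in Ccr7+ DC (732, 1916 and 1777 CPM) and Xcr1+ DC (1305, 1320 and 1155 CPM), and the MaFIA value of the Ccr7+ DC lay below all 3 values of the Xcr1+ DC. It was at 291, 438 and 379 CPM in Cd209a+ DC. The pDC had the lowest Id2 of the 9 classes, 45.2, 70.7 and 92.3 CPM, and overlapped with thymocytes.

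Tcf4 encodes an E protein of the kind ID2 opposes, and the pDC were highest in Tcf4 and lowest in Id2. Tcf4 was at 1921, 1877 and 2103 CPM in pDC, above every other class, and at 556, 732 and 738 CPM in B cells. Cd209a+ DC held 574, 290 and 441 CPM, lowest in CD11c-YFP replicate 1. The lowest levels were in Xcr1+ DC (76.2, 60.9 and 79.7 CPM) and thymocytes (90.7, 60.7 and 68.8 CPM).

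Spib, an Ets factor of pDC and B cells, stood at 390, 246 and 212 CPM in pDC and at 207, 151 and 145 CPM in B cells. It was at 68.6, 65.9 and 33.8 CPM in Ccr7+ DC, at 54.7, 25.6 and 27.7 CPM in Cd209a+ DC and at 3.7, 1.36 and 1.88 CPM in Xcr1+ DC. Spib was higher in MaFIA replicate 2 than in both CD11c-YFP libraries in each of the 9 classes, at 2.05 times their mean (median over classes). The pDC made up 14.4% of cells in MaFIA replicate 2, 2.89% in CD11c-YFP replicate 1 and 1.38% in CD11c-YFP replicate 2. The part of free RNA in the low Spib levels of other classes was not tested.

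Zbtb46 was at similar levels in the classical dendritic classes, 68.3 ± 7.47 CPM in Ccr7+ DC, 65.4 ± 5.28 CPM in Cd209a+ DC and 54.9 ± 1.69 CPM in Xcr1+ DC. Ccr7+ and Cd209a+ DC overlapped, and Xcr1+ DC lay below both as a class. Cluster 0, the Xcr1+ DC outside the proliferating clusters, was at 59.8, 62.6 and 59.2 CPM and overlapped with both. The next class, B cells, was at 8.61 ± 0.871 CPM, and pDC were at 4.65 ± 0.937 CPM. Cbfa2t3 had a like order, with 676 ± 75.8 CPM in Ccr7+ DC, 468 ± 14.1 CPM in Cd209a+ DC and 359 ± 16.3 CPM in Xcr1+ DC. Monocytes (184 ± 12.6 CPM) and pDC (160 ± 14.1 CPM) followed and overlapped, and the macrophage classes were at 50.8 ± 13.4 and 41.7 ± 11.8 CPM.

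Bcl6, a repressor, was highest in Xcr1+ DC (47.7, 63.8 and 60.8 CPM), whose values lay above all other classes. From Ccr7+ DC (37.6 ± 5.66 CPM) down to pDC (9.11 ± 2.38 CPM), each class overlapped with the next. Nfil3 was highest in the Ccr7+ DC of the CD11c-YFP mice (119 and 120 CPM) but at 22.1 CPM in the MaFIA library, and neighbouring classes overlapped throughout its order.

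The comparison of Xcr1+ with Cd209a+ DC sets a class with cDC1 markers against a class with cDC2 markers. Irf8, Id2, Batf3 and Bcl6 were higher in Xcr1+ DC, and Irf4, Spib, Tcf4 and Nfil3 were lower. Irf8 was 13-fold higher (log2 fold change 3.70 ± 0.14 SE, adjusted p = 1e-13) and Irf4 was 39.3-fold lower (-5.30 ± 0.32, adjusted p = 2.98e-11). Spib had a log2 fold change of -3.95 ± 0.30, Tcf4 of -2.57 ± 0.18 and Nfil3 of -0.87 ± 0.24. Within the Cd209a+ DC, Tcf4 was at 1183 ± 33.2 CPM in cluster 14 (583 cells) and at 185 ± 32.1 CPM in cluster 2 (2013 cells). In cluster 0 of the Xcr1+ DC it was at 71.5 ± 11 CPM. The level of Id2 was 60.9 ± 41.8 CPM in cluster 14, 474 ± 15.5 CPM in cluster 2 and 1290 ± 87.3 CPM in cluster 0. Id2 had 1.86 ± 0.30, Batf3 1.14 ± 0.16 and Bcl6 0.86 ± 0.16, and the sign was the same in 3 of 3 libraries for each of these 8 genes. Thus 8 of the 10 members passed, beside 38.0% of all genes tested. Zbtb46 (-0.25, 95% interval from -0.51 to 0.01, adjusted p = 0.142) and Cbfa2t3 (-0.38, -0.82 to 0.05, adjusted p = 0.188) did not pass. The median absolute log2 fold change was 1.5 over the members and 0.37 over all genes.

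Of the 40 partner transcription factors listed for this lineage, 6 were higher and 18 lower in Xcr1+ DC. The largest were Mycl (2.35 ± 0.18, a MYC relative of cDC1) and Ahr (0.97 ± 0.26, the aryl hydrocarbon receptor) on the higher side. Zeb2 (-5.07 ± 0.29), a zinc finger repressor, and Cebpa (-2.75 ± 0.21) lay on the lower side. All 11 genes tested of the cDC1 program were higher, led by Gcsam (5.26 ± 0.33) and Clnk (4.60 ± 0.35). Of the 12 genes of the pDC program, 6 were lower and 0 higher, with Tlr7 at -2.84 ± 0.27 and Atp1b1 at -2.48 ± 0.34. Without MaFIA replicate 2, Cbfa2t3 passed too (-0.42, adjusted p = 0.0368), and over all genes the calls fell to 3847 without CD11c-YFP replicate 1 and to 3626 without CD11c-YFP replicate 2, from 5876.

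The comparison of Ccr7+ with Xcr1+ DC showed 7 members higher and 2 lower, so that 9 of 10 passed, beside 63.5% of all genes. Irf4 was 29.2-fold (4.87 ± 0.32, adjusted p = 1.5e-11) and Spib 25.2-fold higher (4.66 ± 0.30, adjusted p = 1.35e-11) in Ccr7+ DC. Nfil3 (1.95 ± 0.24), Cbfa2t3 (0.91 ± 0.22), Tcf4 (0.83 ± 0.17), Batf3 (0.60 ± 0.16) and Zbtb46 (0.32 ± 0.13) were higher too. Irf8 was 1.99-fold lower (-0.99 ± 0.13, adjusted p = 4.55e-07), and Bcl6 was lower by -0.61 ± 0.16 on the log2 scale. Each had its sign in 3 of 3 libraries. The Ccr7+ DC were uneven, with Irf4 at 90.5 ± 12.7 CPM in cluster 1, 19.9 ± 8.1 CPM in cluster 5 and 31.3 ± 7.19 CPM in cluster 9. In the same order Spib was at 98.4 ± 28, 15.6 ± 2.46 and 18 ± 6.26 CPM. Id2 did not pass (0.03, interval from -0.55 to 0.60, adjusted p = 0.949), with the Ccr7+ DC lower in the MaFIA library (-0.83) and higher in both CD11c-YFP libraries (0.54 and 0.62). Of the partner factors, 18 were higher and 10 lower. Prdm1 (3.99 ± 0.40, BLIMP1) and Zeb2 (3.83 ± 0.28) led the higher ones, and Mycl (-3.63 ± 0.19) and Ahr (-1.97 ± 0.27) the lower ones. Of the 11 cDC1 program genes, 10 were lower, with Tlr3 (-4.32 ± 0.37), a sensor of double-stranded RNA, and Rab7b (-4.15 ± 0.21) at the end of the order. In the pDC program 3 were higher, with Atp1b1 at 3.33 ± 0.34 and Blnk at 2.24 ± 0.31, and 1 was lower, Plac8 (-2.0 ± 0.51). The call of Zbtb46 was lost without CD11c-YFP replicate 1 (0.29, adjusted p = 0.163) and without CD11c-YFP replicate 2 (0.27, adjusted p = 0.138). It was also lost without a low-count filter (0.26), without the block (0.32), at resolution 0.15 (0.24) and with likely doublets removed (0.33). The same held with count splitting (0.21), at a mitochondrial limit of 5% (0.29) and without proliferating clusters (0.21, adjusted p = 0.186). Without MaFIA replicate 2, Id2 was higher in Ccr7+ DC (0.58, adjusted p = 0.0172).

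Against Cd209a+ DC, the Ccr7+ DC had 6 members higher and 1 lower, that is 7 of 10 beside 60.0% of all genes. Irf8 was 6.51-fold higher (2.7 ± 0.13, adjusted p = 4.09e-13), Id2 3.7-fold (1.89 ± 0.30), Batf3 3.34-fold (1.74 ± 0.17) and Nfil3 2.12-fold (1.08 ± 0.23). Spib (0.71 ± 0.25, adjusted p = 0.0166) and Cbfa2t3 (0.53 ± 0.22, adjusted p = 0.046) were higher by less. Tcf4 was 3.34-fold lower (-1.74 ± 0.17, adjusted p = 1.14e-08). Within the Cd209a+ DC it was at 1183 ± 33.2 CPM in cluster 14 (583 of 2971 cells) and at 185 ± 32.1 CPM in cluster 2 (2013 cells), beside 195 ± 32.7 CPM in cluster 1 of the Ccr7+ DC. Irf4 (-0.43, interval from -0.92 to 0.07, adjusted p = 0.15), Bcl6 (0.25, -0.08 to 0.57, adjusted p = 0.206) and Zbtb46 (0.06, -0.20 to 0.33, adjusted p = 0.698) did not pass. Of the partner factors, 16 were higher and 15 lower. Irf1 (2.97 ± 0.18) and Relb (2.92 ± 0.23), an NF-kB subunit, led the higher ones. Bcl11a (-3.47 ± 0.34) and Runx1 (-2.78 ± 0.23) led the lower ones. The cDC1 program gave 4 higher (Cd8a 1.75 ± 0.27, Gcsam 1.21 ± 0.33) and 3 lower genes (Wdfy4 -1.88 ± 0.22, Itgae -1.33 ± 0.36), and the pDC program 1 higher (Atp1b1 0.85 ± 0.31) and 7 lower genes (Plac8 -2.60 ± 0.52, Cd300c -2.38 ± 0.46). Spib no longer passed without CD11c-YFP replicate 1 (0.33, adjusted p = 0.309). Cbfa2t3 no longer passed without CD11c-YFP replicate 1 or 2 (0.49 and 0.51, adjusted p = 0.169 and 0.145). Its call was also lost with clustering on all variable genes (0.56), likely doublets removed (0.55), count splitting (0.54) and a mitochondrial limit of 5% (0.52). Irf4 passed as lower without MaFIA replicate 2 (-0.40, adjusted p = 0.0359). Without the block, 4 members were called in place of 7, with Nfil3, Spib and Cbfa2t3 lost. All genes called were then 7710 of 15467 in place of 9276. The comparisons above share classes, so their values are not independent of each other.

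**Figure D2:**
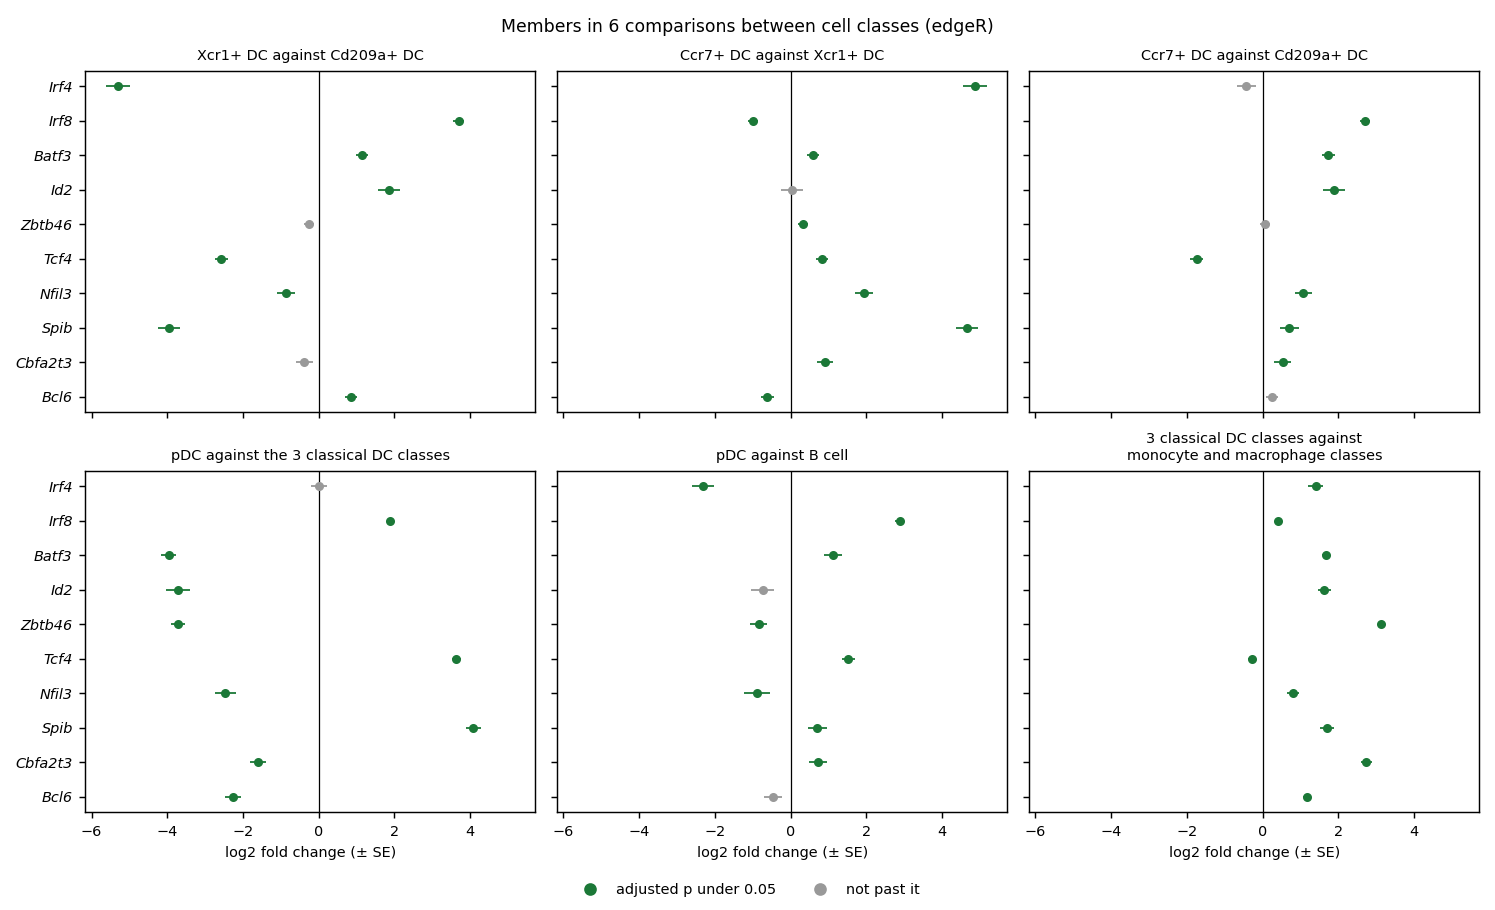
Log2 fold changes of the 10 members (x axes, bars ± SE) in the 6 comparisons, with green points past an adjusted p of 0.05 and grey points not past it. Irf4 lies at -5.30 and Irf8 at 3.70 in Xcr1+ against Cd209a+ DC, and 9 of 10 members lie to the right of 0 against monocytes and macrophages.

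The pDC were compared with the mean of the 3 classical DC classes. Spib was 17-fold higher (4.09 ± 0.19, adjusted p = 4.22e-14), Tcf4 12.4-fold (3.64 ± 0.12, adjusted p = 2.82e-16) and Irf8 3.7-fold higher (1.89 ± 0.09, adjusted p = 1.49e-13). Lower in pDC were Batf3 (15.5-fold, -3.96 ± 0.20), Id2 (13.1-fold, -3.71 ± 0.31), Zbtb46 (13-fold, -3.71 ± 0.18), Nfil3 (-2.46 ± 0.29), Bcl6 (-2.26 ± 0.20) and Cbfa2t3 (-1.59 ± 0.21). Irf4 did not pass (0.01, interval from -0.41 to 0.42, adjusted p = 0.988), and the classical classes it was set against ran from 1.94 ± 0.668 CPM in Xcr1+ DC to 75.2 ± 17 CPM in Cd209a+ DC. In all, 9 of 10 members passed with their sign in 3 of 3 libraries, beside 57.0% of all genes, and the 9 calls held without each library in turn. All 12 pDC program genes were higher, led by Cox6a2 (8.10 ± 0.36) and Cd300c (7.29 ± 0.24). Among the cDC1 program genes, Cd8a was higher (1.17 ± 0.21) and 10 were lower, with Ifi205 at -2.58 ± 0.44 and Snx22 at -2.57 ± 0.38. Among the partner factors, 14 were higher and 19 lower, with Runx2 (4.68 ± 0.16) and Ets1 (4.10 ± 0.23) at the top and Zfp366 (-3.88 ± 0.21, DC-SCRIPT) and Etv3 (-3.13 ± 0.19) at the bottom. With likely doublets removed, Batf3 (-5.47), Id2 (-4.93) and Zbtb46 (-4.68) lay further below the classical classes.

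The pDC share Spib and Tcf4 with B cells, so both classes were compared directly. Irf8 was 7.37-fold (2.88 ± 0.13, adjusted p = 1.53e-13) and Tcf4 2.89-fold (1.53 ± 0.17, adjusted p = 1.13e-07) higher in pDC. Batf3 (1.12 ± 0.24), Cbfa2t3 (0.73 ± 0.23) and Spib (0.71 ± 0.24, adjusted p = 0.0199) were higher too. Irf4, which B cells use on the way to plasma cells, was 4.98-fold lower in pDC (-2.31 ± 0.30, adjusted p = 1.08e-06), and Nfil3 (-0.89 ± 0.35, adjusted p = 0.0403) and Zbtb46 (-0.84 ± 0.22) were lower. Id2 (-0.74, interval from -1.35 to -0.13, adjusted p = 0.0537) and Bcl6 (-0.46, -0.92 to -0.01, adjusted p = 0.11) did not pass. The 8 calls of 10 stand beside 47.8% of all genes. Of the partner factors, 15 were higher, led by Runx2 (6.74 ± 0.29) and Mycl (4.87 ± 0.27). Another 15 were lower, led by Ikzf3 (-4.48 ± 0.37, a lymphoid Ikaros factor) and Prdm1 (-1.96 ± 0.70). Prdm1 was near the counting limit, at 0.898 CPM in pDC against 3.57 CPM in B cells. Of the pDC program 10 were higher (Cd300c 9.38 ± 0.50, Cox6a2 9.31 ± 0.64) and Blnk was lower (-0.63 ± 0.26), and of the cDC1 program 9 were higher (Cd8a 5.73 ± 0.36 and Clnk, which was near the counting limit at 2.72 CPM against 0.0753 CPM) and 2 lower (Tlr3 -1.49 ± 0.47, Wdfy4 -0.97 ± 0.23). Batf3 turned to -0.50 (adjusted p = 0.131) with likely doublets removed, and Id2 then passed as lower (-2.05, adjusted p = 5.98e-05), while Zbtb46 moved to -1.97 (adjusted p = 5.14e-06). The call of Batf3 was also lost at resolutions 0.15 and 0.5 (0.42 and 0.46) and at a mitochondrial limit of 5% (0.55). Leaving out a library ended the calls of Nfil3 (-1.14, -0.65 and -0.79 without CD11c-YFP replicate 2, CD11c-YFP replicate 1 and MaFIA replicate 2), Spib (0.80 without CD11c-YFP replicate 2), Cbfa2t3 (0.70 without CD11c-YFP replicate 1) and Zbtb46 (-0.95 without MaFIA replicate 2), and Id2 passed without MaFIA replicate 2 (-0.69, adjusted p = 0.025) and with DESeq2 (-0.71, adjusted p = 0.0498).

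The classical DC classes were set against the monocyte and both macrophage classes. All 10 members passed, 9 higher and Tcf4 lower, beside 67.9% of all genes. Zbtb46 was 8.77-fold (3.13 ± 0.09, adjusted p = 1.32e-17) and Cbfa2t3 6.67-fold higher (2.74 ± 0.14, adjusted p = 9.27e-14) in the classical DC. Spib (1.70 ± 0.19), Batf3 (1.68 ± 0.10), Id2 (1.63 ± 0.17), Irf4 (1.40 ± 0.19), Bcl6 (1.18 ± 0.10) and Nfil3 (0.81 ± 0.15) were higher, and Irf8 by only 0.41 ± 0.07. Tcf4 was lower by -0.29 ± 0.10 (adjusted p = 0.0104), a call lost without CD11c-YFP replicate 1 (-0.16, adjusted p = 0.187), and its value without MaFIA replicate 2 was -0.45. The classes within each mean were unlike. Irf4 in Xcr1+ DC (1.94 ± 0.668 CPM) lay below monocytes (17 ± 2.57 CPM) without overlap, and Spib in Xcr1+ DC (2.31 ± 1.23 CPM) overlapped with monocytes (5.37 ± 4.92 CPM). Irf8 in Cd209a+ DC (180 ± 19.5 CPM) lay below monocytes (462 ± 64.3 CPM) and both macrophage classes without overlap. Tcf4 had its highest mean of these classes in Cd209a+ DC (435 ± 142 CPM), which overlapped with Timd4+ macrophages (288 ± 6.57 CPM). Id2 in Cd209a+ DC (369 ± 73.6 CPM) overlapped with Timd4+ macrophages (493 ± 154 CPM). Of the partner factors 19 were higher, with Nr4a3 (2.61 ± 0.24) and Zeb1 (2.58 ± 0.07) first, and 11 lower, with Zeb2 (-3.71 ± 0.16) and Cebpa (-3.06 ± 0.12) last. Of the cDC1 program 8 were higher (Itgae 3.23 ± 0.24, Cd8a 3.07 ± 0.18) and 3 lower, among them Cadm1 (-0.81 ± 0.15) and Tlr3 (-0.67 ± 0.20 on the mean of log levels, while its mean CPM was 38.6 against 26.2). Of the pDC program 4 were higher (Pacsin1 1.91 ± 0.22, Atp1b1 1.02 ± 0.22) and 7 lower (Tlr7 -4.83 ± 0.14, Blnk -3.40 ± 0.17).

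Members also varied between the clusters of a class. These clusters were looked at after their values were known, so the following is a description with no test. The Ccr7+ DC consisted of clusters 1 (2284 cells), 5 (1488 cells) and 9 (971 cells), each with all 8 class markers. Cluster 1 held Irf4 at 80.5, 86.1 and 105 CPM, against 14.2, 16.2 and 29.1 CPM in cluster 5 and 34.9, 23 and 36 CPM in cluster 9. For Irf8 the order was turned, with 488, 945 and 539 CPM in cluster 1, 1445, 1923 and 1636 CPM in cluster 5 and 1463, 1561 and 1686 CPM in cluster 9. In both genes cluster 1 did not overlap with the other two. Spib (113, 116 and 66.1 CPM) and Tcf4 (231, 166 and 187 CPM) were likewise higher in cluster 1 than in cluster 5 (Spib 18, 15.8 and 13.1 CPM, Tcf4 53.5, 63.4 and 70.1 CPM) in each library. The Cd209a+ DC markers summed to 458 to 2529 CPM in cluster 1 and to 90 to 214 CPM in cluster 5. Xcr1 itself was at 120 ± 45.5 CPM in cluster 9, 9.61 ± 3.69 CPM in cluster 5 and 4.49 ± 1.89 CPM in cluster 1. Spib and Tcf4 are also B cell genes, and the B cell markers summed to 142 to 189 CPM in cluster 1 and to 110 to 131 CPM in cluster 5, with Cd79a at 1.85 ± 0.56 and 0.853 ± 0.159 CPM.

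The Cd209a+ DC held cluster 2 (2013 cells), the proliferating cluster 17 (375 cells) and cluster 14 (583 cells), which was led by the lectin genes Cd209e and Cd209d. In cluster 14, Tcf4 was at 1201, 1204 and 1145 CPM, against 208, 148 and 198 CPM in cluster 2. Id2 was at 25, 50.9 and 107 CPM in cluster 14 and at 463, 492 and 468 CPM in cluster 2. The Tcf4 of cluster 14 lay above all other named dendritic clusters except that of the pDC (1946, 1888 and 2127 CPM), and its Id2 overlapped with that of the pDC (45.8, 71.1 and 93.4 CPM). Irf4 was at 108, 124 and 139 CPM in cluster 14 and at 68.1, 49.4 and 85.2 CPM in cluster 2, higher in each library. Irf8 was at 350, 362 and 184 CPM in cluster 14 and at 112, 191 and 167 CPM in cluster 2, a log2 ratio of 1.63, 0.92 and 0.14. Zbtb46 was at 79.4, 80.2 and 75.4 CPM in cluster 14 and at 75.1, 67.4 and 59.7 CPM in cluster 2. The pDC markers summed to 834 to 1525 CPM there, against 12838 to 14210 CPM in the pDC, and Siglech was at 133 ± 32.9 CPM in cluster 14 and 14.1 ± 5.33 CPM in cluster 2. Batf3 was at 35.3, 43.3 and 76.9 CPM in cluster 14 and 132, 96.5 and 127 CPM in cluster 2, without overlap. Cluster 14 supplied 225 of 646 Cd209a+ DC in MaFIA replicate 2, 114 of 1220 in CD11c-YFP replicate 1 and 244 of 1105 in CD11c-YFP replicate 2, and the Tcf4 level of the whole class (574, 290 and 441 CPM) had the same order.

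**Figure D3:**
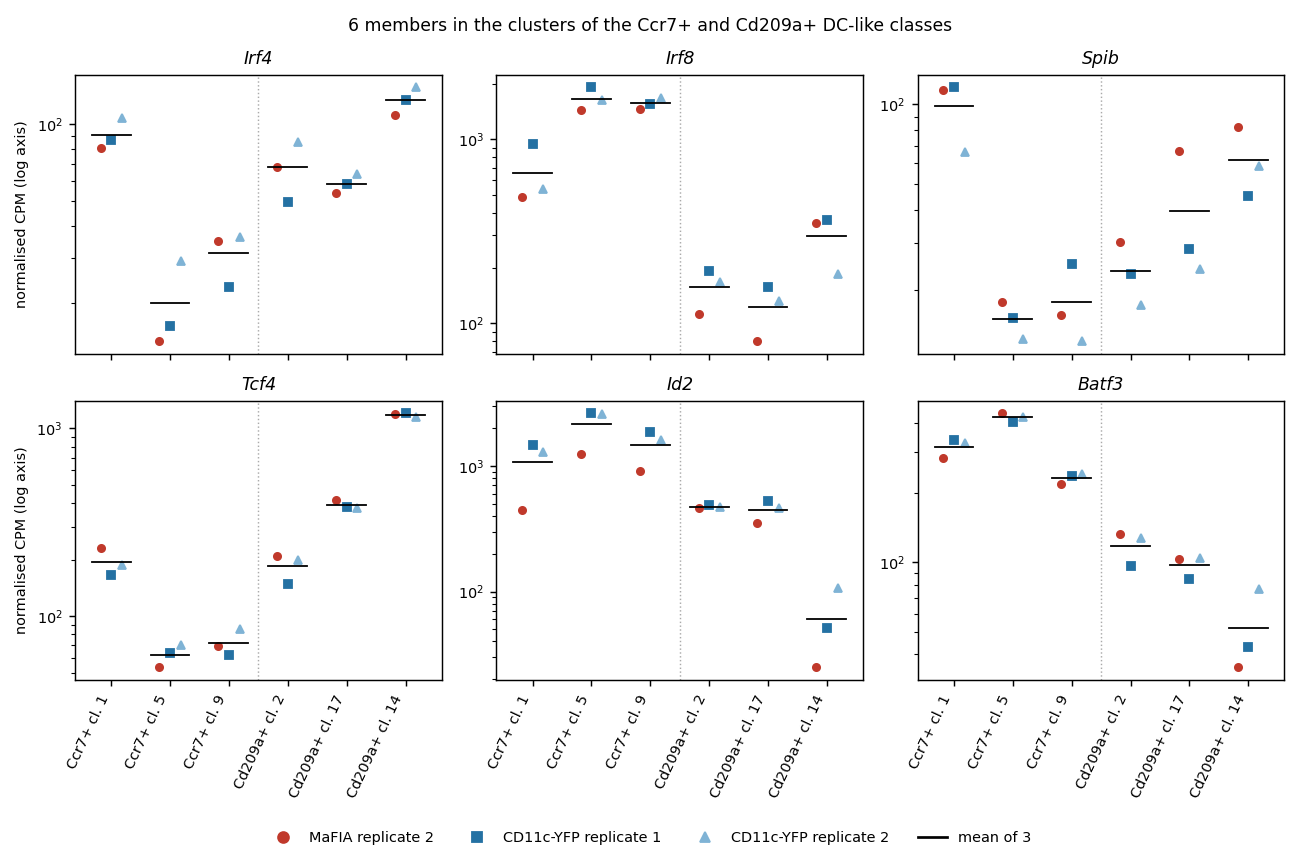
Levels of 6 members (normalised CPM, logarithmic y axes) in clusters 1, 5 and 9 of the Ccr7+ DC and clusters 2, 17 and 14 of the Cd209a+ DC, with 1 point per library and a bar at the mean. Cluster 1 lies above clusters 5 and 9 in Irf4, Spib and Tcf4 and below them in Irf8, and cluster 14 holds Tcf4 at 1145 to 1204 CPM with Id2 at 25 to 107 CPM.

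The Xcr1+ DC were more even. In cluster 0 (3850 cells) and the proliferating clusters 12 and 16, Irf8 was at 2409 ± 88.8, 2338 ± 164 and 2221 ± 171 CPM, Irf4 was at 1.73 ± 0.559, 2.87 ± 0.929 and 2.06 ± 1.58 CPM, and Id2 was at 1290 ± 87.3, 1330 ± 83.4 and 1154 ± 91.7 CPM. Zbtb46 was at 60.5 ± 1.84 CPM in cluster 0 and at 46.6 ± 3.68 and 44.5 ± 3.41 CPM in the proliferating clusters. Without proliferating clusters, a comparison added after the data were seen, 7 members passed in Ccr7+ against Cd209a+ DC, beside 9099 of 15421 genes. In each of the other comparisons 8 to 10 members passed, beside 5817 to 10264 genes.

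At a depth of 3000 UMIs drawn from every cell, Irf8 was found in 99.4% ± 0.483 of pDC, 98.4% ± 0.251 of Xcr1+ DC, 69.9% ± 6.57 of Ccr7+ DC and 21% ± 5.06 of Cd209a+ DC, and in 13.1% ± 0.401 of thymocytes, given as the comparison class. Median depths before drawing were 8525.5 to 14474 UMIs in thymocytes and 21316.5 to 26564.5 UMIs in Xcr1+ DC. Irf4 was found in 23.5% ± 8.05 of B cells, 17.5% ± 3.85 of Cd209a+ DC and 11.3% ± 0.646 of Ccr7+ DC, against 0.38% ± 0.355 of Xcr1+ DC and 3.5% ± 2 of thymocytes. Thymocytes were not empty of Irf4, with 13.3 to 25.7 CPM in cluster 10 and 2.28 to 4.05 CPM in cluster 15. The share of free RNA in the 225 Irf4 and 220 Spib UMIs of the Xcr1+ DC and the 84 Zbtb46 UMIs of the pDC was not tested, so the fold changes against these classes are those of the counts as measured. Tcf4 was found in 98.9% ± 1 of pDC and 50.4% ± 13.2 of Cd209a+ DC, and in 19.5% ± 6.78 of thymocytes. Spib was found in 61.1% ± 10.6 of pDC, 10.8% ± 2.53 of Ccr7+ DC, 0.538% ± 0.498 of Xcr1+ DC and 1.54% ± 1.43 of thymocytes. Zbtb46 was found in 13.2% to 17.7% of the cells of the 3 classical DC classes and in 1.08% ± 1 of pDC, beside 1.07% ± 0.477 of thymocytes. All cells were deep enough to be drawn, and without drawing the share of B cells with an Irf4 UMI was 50.5%.

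Irf4 and Irf8 UMIs in the same cell were counted at this depth. In Ccr7+ DC, 330 of 4743 cells held both, and the share of such cells was 0.77, 0.818 and 0.873 of the product of the single shares in the 3 libraries. In B cells this ratio was 1.06, 1.02 and 0.966, and in Cd209a+ DC 0.895, 0.762 and 1.08. Within the clusters of the Ccr7+ DC the mean ratio was 0.957 ± 0.116 in cluster 1, 1.01 ± 0.0884 in cluster 5 and 1.07 ± 0.0868 in cluster 9. In the whole class the ratio was 0.874 at 5000 UMIs and 0.949 without drawing, and all these ratios are a description with no test.

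A test of the difference between the reporters, MaFIA minus CD11c-YFP, was run for each member in each of the 6 comparisons, with 1 MaFIA library against 2. The MaFIA arm gives no spread of its own and is assumed to vary like the CD11c-YFP libraries, so a difference between reporters and one of this library cannot be told apart. Of the 60 tests, 1 passed. Id2 differed by 0.85 ± 0.21 on the log2 scale (adjusted p = 0.0494) in the classical DC against the monocyte and macrophage classes, where 1.89% of all genes passed. The contrast of Id2 was 2.18 in the MaFIA library and 1.55 and 1.13 in the CD11c-YFP libraries, on log2 of the normalised CPM plus 1. The call was lost under most alternatives, among them resolution 0.5 (0.73, adjusted p = 0.0777), removal of likely doublets (0.79, adjusted p = 0.096) and a fit without the block (0.85, adjusted p = 0.108). Its level was lower in the MaFIA library than in both CD11c-YFP libraries in 8 of 9 classes, for example 74.2 against 213 and 339 CPM in monocytes and 123 against 382 and 346 CPM in Cx3cr1+ macrophages, and Xcr1+ DC were the exception (1305 against 1320 and 1155 CPM). Nfil3 was lower in the MaFIA library in all 9 classes, at 0.132 to 0.465 of the CD11c-YFP mean, and its difference between reporters in the same comparison was -0.95 ± 0.25 (adjusted p = 0.0707). This Nfil3 difference passed under some alternatives, among them DESeq2 (-0.97), no low-count filter (-1.01) and clustering on all variable genes (-1.11). The genes Fos, Jun, Junb, Dusp1, Atf3 and Hspa1a were lower in the MaFIA library in 9 of 9 classes, at a median of 0.0275 to 0.227 of the CD11c-YFP mean. Their part in the values of Id2 and Nfil3 was not tested.

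**Figure D4:**
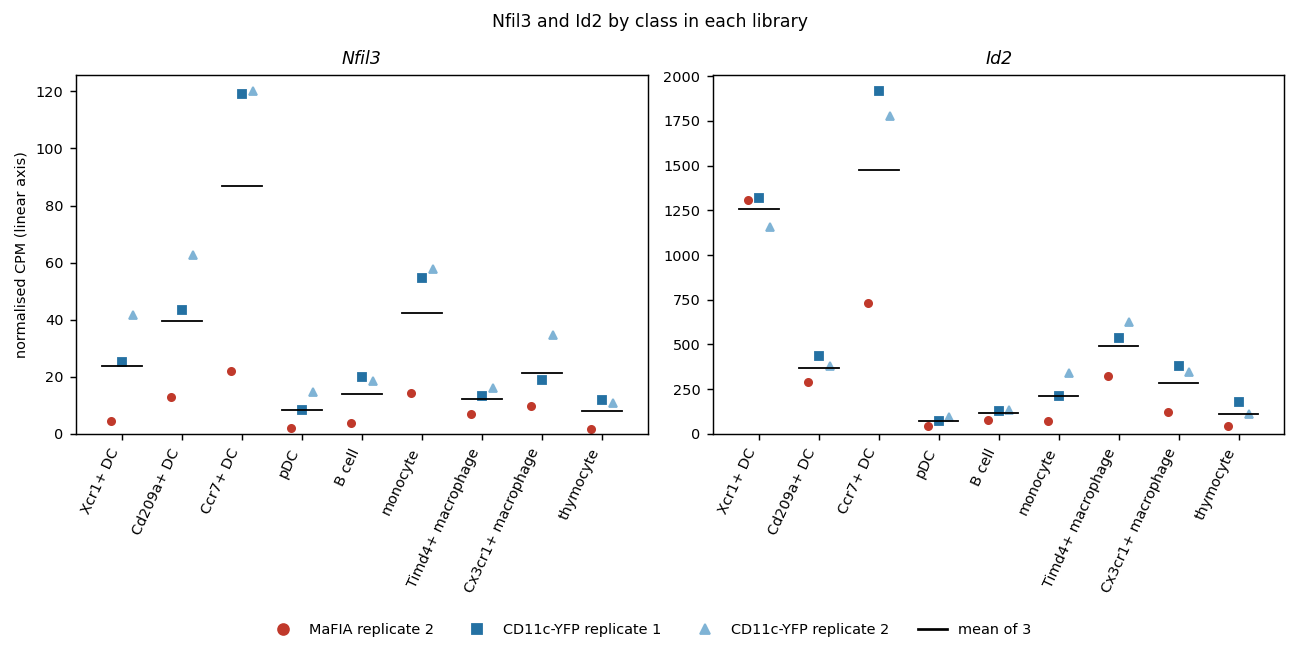
Nfil3 and Id2 (normalised CPM, linear y axes from 0) in the 9 classes, with 1 point per library and a bar at the mean. MaFIA replicate 2 is the lowest point in each class for Nfil3 and in 8 of 9 classes for Id2.

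For each member the 3 genes with the most similar levels over the 27 sums were taken, as a description over sums that share libraries and classes. Batf3 was followed by Adam8 (Pearson r = 0.968), Atox1 (0.966) and Arhgap22 (0.956), and Zbtb46 by Mtmr4 (0.951), Htr7 (0.926) and Nectin1 (0.919). Nfil3 was followed by Dusp8 (0.947), Coq10b (0.939) and Ifrd1 (0.934), each of which was lower in the MaFIA library in 9 of 9 classes, as Nfil3 was. Cbfa2t3 was followed by Dapp1 (0.939), Alcam (0.934) and S100a11 (0.934), and Bcl6 by Ptcd2 (0.931), Lsr (0.898) and Rassf1 (0.895). Spib was followed by Havcr1 (0.917), Eya1 (0.905) and Niban3 (0.882), and Id2 by Jdp2 (0.904), Commd10 (0.904) and Tuba1c (0.877). The closest values were lower for Tcf4 (Carmil1 0.883, Gm14302 0.879, Gcm2 0.878), Irf8 (Creb3 0.874, BC055308 0.873, Nckipsd 0.859) and Irf4 (Gpr183 0.872, Gm43430 0.849, St8sia6 0.826). No member was among the 3 nearest genes of another.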

How the data were processed

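Sorted thymic cells were profiled with 10x Genomics 3′ v3 chemistry in 4 libraries. Raw UMI counts of each gene in each barcode are what the authors deposited, with no scaling applied. Per the labels, bcl2fastq 2.20, STAR 2.7.9a and Cell Ranger with GRCm39 were used, whereas the study's methods name mm10. Cells with under 1000 or over 7000 genes or over 10% mitochondrial UMIs and genes in under 3 cells were removed. Each cell was scaled to 10000 UMIs and log-transformed in scanpy 1.11.5, and 2000 variable genes, 70 principal components, 3 neighbours per library and the Leiden method (leidenalg 0.10.2) at resolution 1.0 gave the clusters. The members and gene lists did not enter. Clusters were named by mean scaled marker expression (score at least 0.35, runner-up below 0.6 of the best, 0.8 between related classes, at least 3 markers detected), by thresholds set after the clusters were seen, and 8 clusters (1929 cells) stayed unnamed. Except for thymocytes and cytotoxic lymphocytes, a name was also refused if at least 3 of the 10 leading genes were T cell genes. That T cell gene list was written after the clusters were seen. By it cluster 21 (180 cells) lost the name Xcr1+ DC, with Irf4 at 18.7 ± 14.3 CPM and Spib at 21.3 ± 5.46 CPM. The members, lists and comparisons were chosen with earlier results of these data known.

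Counts were summed over the cells of a class in a library (10 cells or more) and tested in edgeR 4.0.16 (TMM, filterByExpr, quasi-likelihood F test, R 4.3.3) with the library as a block, since the classes of a library come from the same sort, with 16 residual degrees of freedom (8 with the reporter term). The lowest sum was 1511504 UMIs and the common biological coefficient of variation 0.136. By the study's methods the CD11c-YFP libraries came from separate mice. These methods name 1 MaFIA mouse, whereas 2 MaFIA libraries were deposited, and whether those came from separate mice is not given. With the block, p-values measure how class differences vary between the libraries, pooled over the classes. Shifts shared by all classes of a library do not enter them. In simulated counts for Xcr1+ against Cd209a+ DC (14370 genes), 38 of 78 genes changed 1.5-fold, 50 of 57 changed 2-fold and 56 of 56 changed 4-fold were recovered, with 10 false calls among 14179 genes. The simulation gave all classes the same profile apart from the changed genes, every gene the common coefficient of variation, and the libraries no effect. Its recovery and false calls hold for that setting only. Doublets stayed in the main result. As alternatives, DESeq2 1.42.0 was run, the low-count filter or the block was dropped, and further settings were each library left out in turn, resolutions 0.15 and 0.5, clustering on all variable genes, likely doublets removed (0.8% per 1000 barcodes), count splitting, a mitochondrial limit of 5% and, added later, no proliferating clusters. Named are every member, its 3 most similar genes, and per list and comparison the 2 largest changes in each direction among those past an adjusted p of 0.05. Genes named outside this rule are markers and the early response genes.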

Additional observations from a re-analysis of the deposited data

Results flagged for a closer look

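The contrast of Id2 between the classical DC and the monocyte and macrophage classes was picked out because the MaFIA library differed from the CD11c-YFP libraries in a test of the difference itself, 0.85 on the log2 scale (MaFIA minus CD11c-YFP, edgeR's quasi-likelihood test, adjusted p = 0.0494, 1 MaFIA library against 2). With a single MaFIA library, assumed to vary like the others, the reporter and the library cannot be told apart. The value was 0.73 at resolution 0.5 (adjusted p = 0.0777) and 0.71 with count splitting (adjusted p = 0.0751), where it no longer passed.

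MaFIA replicate 1 entered no comparison, and each of the members was found in it above the 0.112 CPM that a count of 3 stands for, which covers counting error only. Over its 5493 barcodes Irf4 was at 28.3 CPM, Irf8 at 955, Batf3 at 129, Id2 at 395, Zbtb46 at 29.3, Tcf4 at 253, Nfil3 at 12.2, Spib at 89.5, Cbfa2t3 at 151 and Bcl6 at 18 CPM. In MaFIA replicate 2, with 6219 cells, the same genes were at 26.7, 1083, 93.3, 409, 28.7, 433, 8.57, 81.9, 230 and 21.3 CPM. Nfil3 was at 40.8 and 50.4 CPM in CD11c-YFP replicates 1 and 2, above both MaFIA libraries, and Spib at 36.3 and 24.9 CPM, below both. The libraries hold unlike shares of the classes, and these differences were not tested.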

How the results depend on the processing

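Of the 60 comparisons of 1 member, 39 kept their direction and their side of the threshold under every alternative run. Over the 770 values of single members under an alternative, 707 were unchanged in this sense, 37 were no longer past the threshold, 16 newly passed and 10 changed sign. The sign changes were Id2 in Ccr7+ against Xcr1+ DC (-0.03 without a low-count filter, -0.20 without either CD11c-YFP replicate, 0.58 without MaFIA replicate 2), Zbtb46 in Ccr7+ against Cd209a+ DC (-0.03 without CD11c-YFP replicate 2, 0.20 without MaFIA replicate 2, -0.00 with count splitting, -0.01 without proliferating clusters), Irf4 in pDC against classical DC (-0.27 and -0.09 without CD11c-YFP replicate 1 and 2, 0.54 without MaFIA replicate 2, -0.05 at a mitochondrial limit of 5%) and Batf3 in pDC against B cells (-0.50 with likely doublets removed). All but the last were not past the threshold before either, and the cause was not tested. Without the replicate block, 4 members passed in Ccr7+ against Cd209a+ DC in place of 7, beside 7710 of 15467 genes in place of 9276. Over the 6 comparisons 10 calls of single members were lost, 5 of them of Nfil3.

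Members called with a library left out ranged from 8 to 9 (Xcr1+ against Cd209a+ DC), 8 to 10 (Ccr7+ against Xcr1+), 5 to 8 (Ccr7+ against Cd209a+), 9 to 9 (pDC against classical DC), 6 to 7 (pDC against B cells) and 9 to 10 (classical DC against monocytes and macrophages). All genes called in Xcr1+ against Cd209a+ DC ranged from 3626 to 5952, of 15610 to 15779 genes tested. In Ccr7+ DC they ranged from 8096 to 10034 (against Xcr1+) and from 7388 to 9428 (against Cd209a+). In pDC they ranged from 6888 to 7320 (against classical DC) and from 5620 to 6047 (against B cells). In classical DC against monocytes and macrophages they ranged from 8857 to 10285. Members that differed between the MaFIA and the CD11c-YFP libraries numbered 2 with DESeq2, 6 without a low-count filter and 0 at resolution 0.5, with count splitting and without the block, in place of 1, so this count depends on the setting. The Irf4 and Irf8 ratio in Ccr7+ DC was 0.874 at 5000 UMIs and 0.949 without drawing. Resolution 0.15 gave no value for classical DC against monocytes and macrophages, and libraries could not be left out of the test between reporters. Depth limits Nfil3 in pDC (76 UMIs in all) and Zbtb46 in thymocytes (47 UMIs).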
